A study of Mus musculus with 16 samples.

Results

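Complement is a set of plasma proteins, most of them made in the liver, together with the receptors and inhibitors that cells carry against them. The listed set held 34 mouse genes, taken by name: recognition molecules, proteases, the C3 and C5 group, the terminal lytic components, inhibitors and receptors. A gene was found through the array probes that carry its name in the scanner files (Hc is complement C5). In this way 33 of the 34 genes had a probe, 48 probes in all, and 32 genes entered the tests among 16669 genes. C5ar1, the receptor for C5a, was not well above background in any of 24 channels. C1ra had no probe of that name. Among the listed genes 21 were taken as mainly hepatocyte-made (20 tested), 9 as made by or carried on macrophages and other myeloid cells (8 tested), and 4 as coming from other or several sources.

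Liver RNA was read on 16 Agilent arrays in 2 colours. There were 4 genotypes: wild type, Nrf2 knockout (Nrf2-/-; Nfe2l2 encodes the transcription factor Nrf2), the Atg7 conditional knockout (Atg7F/F:Mx1-Cre, here Atg7 cKO) and the double knockout (Atg7F/F:Mx1-Cre:Nrf2-/-). Per the series text, Atg7 cKO, double knockout and control mice were injected with pIpC at 8 weeks of age and livers were taken 4 weeks later; the labels do not say whether the Nrf2 KO mice count among these controls. The Mx1 promoter that drives Cre responds to interferon and is active in many cell types, blood and Kupffer cells included, so the deletion is not limited to hepatocytes, and pIpC is itself an interferon inducer. Each comparison had 2 experiments, each a dye swap averaged to 1 value: Nrf2 KO over wild type (experiments 1 and 4), Atg7 cKO over wild type (2 and 5), double knockout over wild type (3 and 6) and double knockout over Atg7 cKO (7 and 8). The labels number no animals and do not say whether experiments shared wild-type RNA, so p-values measure the spread between these experiments, part of which may be technical.

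Complement can be started by antibody-bound C1q with its proteases C1r and C1s (the classical pathway), by mannose-binding lectins, ficolins and collectins with their MASP proteases (the lectin pathway), or by slow turnover of C3 amplified by factors B and D and stabilised by properdin (the alternative pathway). All 3 routes cleave C3 and then C5, and C5b gathers C6, C7, C8 and C9 into a pore. C1 inhibitor, factor I, C4b-binding protein, clusterin and vitronectin hold these steps back in plasma, and CD55 and CD59 do so on cell membranes. Hepatocytes secrete most of the plasma components, whereas C1q and properdin come mainly from myeloid cells such as the Kupffer cells of the liver. In whole liver, fewer cells of a type and less RNA per cell cannot be told apart.

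The sequences upstream of 6 members on which the results turn are shown first, each the 250 bases before the annotated start, 5′ to 3′ along the gene, from RefSeq on build GRCm38.p6. C1qb (chr4:136886201-136886450, minus strand), its neighbour C1qc (chr4:136892915-136893164, minus strand) and the properdin gene Cfp (chrX:20931556-20931805, minus strand) stand for the macrophage-made members that rose without Atg7. C8a (chr4:104876399-104876648, minus strand), its neighbour C8b (chr4:104766067-104766316, plus strand) and the vitronectin gene Vtn (chr11:78498870-78499119, plus strand) stand for the hepatocyte-made members that fell. Capitals mark a match to the antioxidant response element core in C1qb and Cfp, to a PU.1 site in C1qc and to a STAT site in C8a. C8b and Vtn hold no match to the motifs searched.
C1qb: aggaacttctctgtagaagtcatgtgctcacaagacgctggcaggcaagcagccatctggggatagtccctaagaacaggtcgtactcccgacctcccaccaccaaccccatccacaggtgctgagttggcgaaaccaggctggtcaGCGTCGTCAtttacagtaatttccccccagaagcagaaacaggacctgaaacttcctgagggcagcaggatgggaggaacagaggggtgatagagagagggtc
C1qc: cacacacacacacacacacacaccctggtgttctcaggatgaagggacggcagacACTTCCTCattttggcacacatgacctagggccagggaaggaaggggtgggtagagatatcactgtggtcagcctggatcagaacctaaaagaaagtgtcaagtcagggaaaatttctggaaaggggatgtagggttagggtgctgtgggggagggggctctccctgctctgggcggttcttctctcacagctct
Cfp: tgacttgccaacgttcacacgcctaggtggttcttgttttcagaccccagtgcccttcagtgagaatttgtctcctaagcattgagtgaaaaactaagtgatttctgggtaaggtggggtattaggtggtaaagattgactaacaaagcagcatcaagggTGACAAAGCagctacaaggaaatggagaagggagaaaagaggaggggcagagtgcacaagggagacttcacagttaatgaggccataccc
C8a: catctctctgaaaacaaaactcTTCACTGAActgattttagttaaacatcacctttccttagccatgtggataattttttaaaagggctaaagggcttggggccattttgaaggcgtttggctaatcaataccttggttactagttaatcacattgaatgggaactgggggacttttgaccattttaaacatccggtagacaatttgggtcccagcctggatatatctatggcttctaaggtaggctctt
C8b: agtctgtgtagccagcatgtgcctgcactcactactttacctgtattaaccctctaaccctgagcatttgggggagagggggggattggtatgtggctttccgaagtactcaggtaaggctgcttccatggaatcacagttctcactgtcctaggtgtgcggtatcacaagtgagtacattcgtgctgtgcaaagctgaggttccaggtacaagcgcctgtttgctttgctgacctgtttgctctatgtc
Vtn: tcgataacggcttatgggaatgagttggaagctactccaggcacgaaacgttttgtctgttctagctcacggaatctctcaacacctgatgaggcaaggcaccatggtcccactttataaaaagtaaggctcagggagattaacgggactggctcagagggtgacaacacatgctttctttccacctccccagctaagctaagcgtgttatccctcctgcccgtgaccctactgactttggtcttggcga

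Promoters were found for 26 of the 34 members (28 promoters) and searched on both strands of the 250 bases. The antioxidant response element core, TGACNNNGC, the site class bound by Nrf2, was present in 2 of the 28, those of C1qb and Cfp, and in 10.2% of all 32851 promoters of the table. The letters TTCNNNGAA (STAT) were present upstream of C8a, Colec11 and Masp2 against 7.02% of all promoters, and TTGCNNAA (C/EBP) upstream of C1s, C3 and C9 against 9.56%. The interferon-stimulated response element occurred upstream of Cd59a and Colec11 against 2.98%, overlapping the STAT match in Colec11, and GAGGAAGT (PU.1) upstream of C1qc against 2.44%. No member promoter held the NF-kappaB site (1.21% of all) or the HNF1 site (0.00913% of all). These are matches of letters and nothing was measured at them.

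On the 12 arrays with scanner files, 43.4% to 57.2% of 43379 spots were well above background and at most 1 spot per channel was saturated. The number of arrays limits the precision. On the log2 scale Nfe2l2 lay at -3.88 (Nrf2 KO), 1.20 (Atg7 cKO) and -3.71 (double knockout), and Atg7 at -0.05, -0.80 and -0.73 in that order. The exons removed are not given in the sources used here, so these probes check the genotypes only where they lie in the deleted part. In the wild-type channels, experiments 1 to 3 had the Y-linked transcripts Ddx3y and Eif2s3y and low Xist, and experiments 4 to 6 the reverse. The labels of the series give no sex. Every comparison with wild type therefore had 1 experiment from each of these sets. These transcripts were not examined in the knockout channels, so whether the partners on an array matched in sex is not shown. Values are log2 ratios with the SD over 2 experiments, and calls are limma's at a Benjamini-Hochberg adjusted p under 0.05 over all genes.

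Without Nrf2 alone, no complement member passed the test, and the median over members was 0.01. That comparison called 2 of 16669 genes, so the lack of calls does not show that small changes were absent. With Atg7 deleted, C1q, properdin and the integrin CD11c, from myeloid cells, rose together with clusterin, C4b-binding protein and Mbl2, while the other hepatocyte-made components that passed the test fell. With Nrf2 deleted as well, the myeloid components were again above wild type, while fewer hepatocyte-made ones were below it and several, among them C1 inhibitor, were above it. In Nrf2 KO 0 of 32 members passed limma's threshold, with 2 (Cfp and Vtn) at an unadjusted p under 0.05, beside 0.012% of all genes called. In Atg7 cKO 19 passed, 8 higher and 11 lower, beside 39.4% of all genes (23.2% higher, 16.2% lower). The double knockout had 18, 13 higher and 5 lower, beside 37.1% of all genes (21.2% higher, 15.9% lower). Set directly against Atg7 cKO it had 6 higher and 0 lower, beside 14.8% of all genes (6.72% higher, 8.07% lower); these arrays were read from processed signals without an offset.

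The sources differed in direction in Atg7 cKO. Of 20 tested hepatocyte-made members 3 rose and 10 fell there (median log2 ratio -0.44), 6 rose and 4 fell in the double knockout (median 0.25), and 5 rose and 0 fell in the direct comparison (median 0.55). Of 8 tested macrophage-made members 5 rose and 0 fell in Atg7 cKO (median 1.04), 6 rose and 0 fell in the double knockout (median 1.39), and 0 passed limma's threshold in the direct comparison (median 0.31), with 3 at an unadjusted p under 0.05. In Nrf2 KO the medians were -0.01 and 0.06. The median of all genes was 0.00 to 0.01 in every comparison. C3ar1 and Itgam passed the filter on dim probes only through knockout channels and so had to differ, and Itgam is 1 of the 6 counted in the double knockout. Over the members well above background in all 24 channels the macrophage-made medians were 1.42 in Atg7 cKO against 1.69 in the double knockout. Of these 5 macrophage-made members 4 rose in each. The hepatocyte-made median of the double knockout rested on experiment 6: it was -0.18 without it, 0.31 without experiment 3 and 0.03 with slide as a block. Leaving out 1 experiment also moved the counts of hepatocyte-made calls: without experiment 2 the number that fell in Atg7 cKO was 6, without experiment 3 the double knockout had 3 higher and 2 lower, and in the direct comparison 1 to 5 rose. With slide as a block the double knockout had 7 higher and 7 lower. The macrophage-made median of the direct comparison was 0.11 without experiment 7, 0.56 without experiment 8, where Itgax passed, and 0.18 through wild type.

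**Figure D1:**
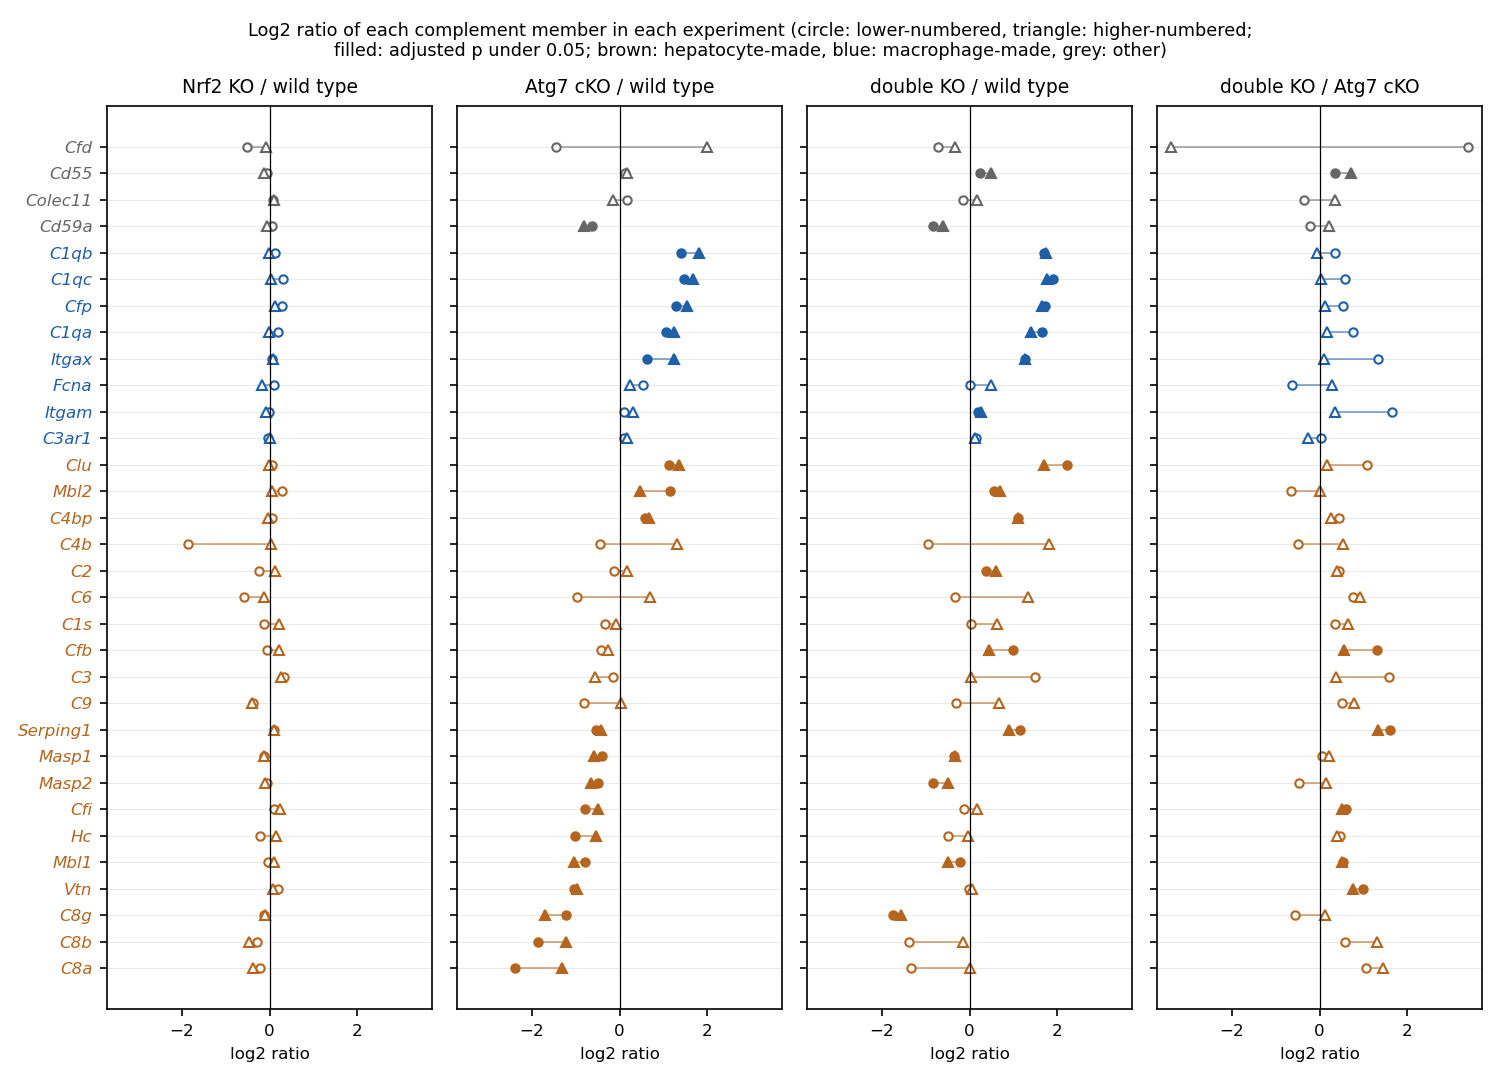
Log2 ratio (x axis) of each of the 32 tested complement members (rows, grouped by main source) in each experiment of the 4 comparisons; circles are the lower-numbered and triangles the higher-numbered experiment, and filled symbols mark members with an adjusted p under 0.05. C1qa, C1qb, C1qc and Cfp lie right of 0 in both experiments of Atg7 cKO and of the double knockout, C8a, C8b and C8g lie at -1.22 or below in Atg7 cKO, and C4b, C6 and Cfd have experiments on opposite sides of 0 in Atg7 cKO.

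C1q, which recognises antibody and dying cells and starts the classical pathway, is built from the products of C1qa, C1qb and C1qc, neighbouring genes on chromosome 4. C1qa (probe at mm9 chr4:136452409-136452468) had log2 ratios of 0.19 and -0.02 in Nrf2 KO, Atg7 cKO gave 1.05 and 1.24, the double knockout 1.65 and 1.39, and the direct comparison 0.76 and 0.17. C1qb (chr4:136436578-136436637) had 0.13 and -0.01, then 1.40 and 1.81, then 1.69 and 1.73, and 0.35 and -0.06 in the same order. C1qc (chr4:136445766-136445825) had 0.30 and 0.03, then 1.47 and 1.68, then 1.90 and 1.76, and 0.58 and 0.02. All 3 chains were high in every Atg7 cKO and double knockout experiment, with no overlap with the Nrf2 KO experiments, and set directly against each other the genotypes differed more in experiment 7 than in experiment 8. The mean for C1qc was 1.57 ± 0.15 in Atg7 cKO (SD, n = 2; 2.98-fold; limma adjusted p = 8.3e-04), the double knockout reaching 1.83 ± 0.10 (3.56-fold; adjusted p = 6.71e-04). C1qa rose by 1.15 ± 0.13 and 1.52 ± 0.18 (adjusted p = 0.00137 and 7.9e-04) and C1qb by 1.60 ± 0.29 and 1.71 ± 0.03 (9.34e-04 and 7.9e-04). No chain passed in the direct comparison (adjusted p of 0.117, 0.544 and 0.25 for C1qa, C1qb and C1qc).

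C1s, the protease that C1q sets off through C1r, comes from hepatocytes and did not follow C1q. Atg7 cKO lay at -0.21 ± 0.18, the double knockout at 0.33 ± 0.42 and the direct comparison at 0.50 ± 0.23 (limma adjusted p = 0.359, 0.184 and 0.107). A probe that the files name C1r is on a transcript that RefSeq names C1ra, so it was not counted among the members. Atg7 cKO gave -0.09 and 0.22 for it, the double knockout 0.45 and 0.93 (mean 0.69, limma adjusted p = 0.0138) and the direct comparison 0.56 and 0.69 (mean 0.62, adjusted p = 0.0429). It thus passed above wild type and above Atg7 cKO in the double knockout, but these calls were not examined under other settings or with experiments left out. The probe of C1rb, its close copy, lay at 0.13 in Atg7 cKO against 0.33 in the double knockout without passing; either probe may read both copies.

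Cfp encodes properdin, the one known plasma protein that stabilises the alternative pathway convertase, and its probe (chrX:20502742-20502801) followed C1q. Its log2 ratios were 0.28 and 0.12 in Nrf2 KO, while Atg7 cKO gave 1.29 and 1.54, the double knockout 1.72 and 1.66 and the direct comparison 0.54 and 0.12. Both knockouts that lack Atg7 were high in every experiment, with no overlap with Nrf2 KO. Cfp rose by 1.42 ± 0.17 in Atg7 cKO (2.67-fold; limma adjusted p = 7.12e-04), the double knockout reaching 1.69 ± 0.05 (3.23-fold; adjusted p = 6.71e-04). The direct value was 0.33 ± 0.30 (adjusted p = 0.163).

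Markers of macrophages moved with these members. Of 12 macrophage markers tested, 10 rose and 1 fell in Atg7 cKO (median 1.54) and 11 rose and 1 fell in the double knockout (median 1.86). All 12 were well above background in at least 1 wild-type channel of each comparison. Their summed signal ranged over experiments from 8709 to 10918 in wild-type channels, 10590 to 10597 without Nrf2, 31700 to 50704 without Atg7 and 61134 to 68495 without both. Adgre1, a marker of tissue macrophages, rose by 1.93 and 2.17, and the scavenger receptor Marco by 3.34 and 4.43, while Cd163, another scavenger receptor, fell by 1.19 and 1.02. In the direct comparison 2 of the 12 rose (median 0.31). Vsig4 is at once a complement receptor and 1 of the 12. Of 4 markers tested for monocytes and dendritic cells 1 rose without Atg7 and 2 without both genes, and of 5 tested for neutrophils 2 rose in each, with 0 lower in either list. Camp, a neutrophil marker, was well above background only in 2 of 4 Atg7 cKO and 2 of 4 double knockout channels. It passed the filter only through these channels, so it could not come out lower. Detection in wild type is not given here for the other markers of these lists. The calls were 25% and 50% of the monocyte and dendritic cell markers and 40% of the neutrophil markers in each. Macrophage markers had 91.7% and 100%, and 16.7% in the direct comparison. Over all genes 39.4% were called in Atg7 cKO (23.2% higher), 37.1% in the double knockout (21.2% higher) and 14.8% in the direct comparison (6.72% higher). The part of these markers in the results on C1q, properdin and the receptors was not tested.

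The receptors for complement fragments were dim or moved with the macrophage markers. Itgax, which encodes CD11c of complement receptor 4, had log2 ratios of 0.06 and 0.07 in Nrf2 KO, while Atg7 cKO gave 0.62 and 1.25, the double knockout 1.26 and 1.26 and the direct comparison 1.32 and 0.11. It was high in every experiment that lacked Atg7 against wild type, and experiments 7 and 8 differed. It rose by 0.93 ± 0.44 in Atg7 cKO (limma adjusted p = 0.00679), the double knockout reaching 1.26 (adjusted p = 0.00302), where both experiments gave the same value. A second Itgax probe, well above background in 6 of 24 channels, lay at -0.05 and -0.01. On processed signals, which carry no offset, Itgax lay at 1.91 and 2.40, and with the mean over both probes at 0.44 and 0.63, called in each.

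Itgam (CD11b of complement receptor 3) and C3ar1 (the C3a receptor) were not well above background in any wild-type channel, so only a lower bound can be given: the bright group's mean against the lowest signal among probes well above background on the same arrays, or the dim probe's own if higher. Itgam was at least 1.15-fold higher in Atg7 cKO (2 of 4 channels above background) and at least 1.17-fold higher in the double knockout (4 of 4). C3ar1 was at least 1.1-fold higher in both (4 of 4 and 3 of 4 channels). The single experiments of Itgam were -0.02 and -0.08 in Nrf2 KO, while Atg7 cKO gave 0.11 and 0.31, the double knockout 0.19 and 0.27, and the direct arrays, without an offset, 1.66 and 0.34. Limma's adjusted p for Itgam was 0.0527 (Atg7 cKO), 0.046 (double knockout) and 0.128 (direct), and for C3ar1 the values with wild type were 0.0654 and 0.0706. The Itgam call of the double knockout was lost without any 1 of experiments 1, 3, 4 and 6, with slide as a block and without a filter. On processed signals, which carry no offset, Itgam lay at 1.92 in Atg7 cKO against 2.37 in the double knockout.

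The recognition molecules of the lectin pathway went different ways. Mbl1 and Mbl2 encode the mannose-binding lectins, which bind sugars on microbes. In Atg7 cKO Mbl1 fell by 0.91 ± 0.17 (limma adjusted p = 0.00241) and Mbl2 rose by 0.80 ± 0.47 (adjusted p = 0.0163), and in the double knockout Mbl1 lay at -0.37 ± 0.19 (adjusted p = 0.0354) and Mbl2 at 0.62 ± 0.10 (adjusted p = 0.0355). So the 2 lectins of hepatocytes had opposite signs in both experiments of both knockouts. In the direct comparison Mbl1 lay at 0.53 and 0.52 (adjusted p = 0.0404) and Mbl2 at -0.65 and 0.01 (adjusted p = 0.362). The double knockout calls of both lectins were lost without any 1 of experiments 1, 3, 4 and 6, and the direct call of Mbl1 without any 1 of the 8 experiments, at values of 0.52 to 0.54. Fcna, the ficolin of macrophages, lay at 0.39 ± 0.22 in Atg7 cKO against 0.25 ± 0.35 in the double knockout, and Colec11, a collectin, at 0.01 in both; none of these 4 values passed.

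The MASP proteases, which the lectins activate, were lower in both Atg7-deleted livers. Masp2 fell by 0.58 ± 0.12 in Atg7 cKO (limma adjusted p = 0.00794) and by 0.67 ± 0.24 with Nrf2 deleted as well (adjusted p = 0.00536). A Masp2 probe on another transcript lay at -1.32 and -1.19. Masp1 fell by 0.50 ± 0.13 and 0.35 ± 0.02 on its brightest probe (adjusted p = 0.00302 and 0.00879), but 2 further kept probes lay at -0.04 and -0.05 in Atg7 cKO and at 0.06 in the double knockout, so the fall of Masp1 rests on 1 of its 3 kept probes. Neither protease passed in the direct comparison (0.14 for Masp1 and -0.16 for Masp2). The Masp1 call of the double knockout was lost with the mean over probes (-0.08, adjusted p = 0.216) and without experiment 3 or 6 (adjusted p = 0.079 and 0.0624). The Masp2 call of Atg7 cKO was lost without experiment 5 (adjusted p = 0.074).

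C3, the protein on which all routes converge, and the parts of its convertases had no member that passed as lower. C3 (chr17:57343416-57343475) lay at 0.32 and 0.26 in Nrf2 KO, while Atg7 cKO gave -0.16 and -0.57, the double knockout 1.50 and 0.03 and the direct comparison 1.59 and 0.37. Experiments 3 and 7 stood high and experiments 6 and 8 did not, and no comparison passed (limma adjusted p = 0.431, 0.136 and 0.182 in the last 3); without experiment 6 the double knockout did (1.50, adjusted p = 0.00916). Experiment 3 is also the one whose wild-type channel held the lowest C3 signal, 13.99 on the log2 scale against 14.70 to 15.11 in the other 5. Its knockout channel lay at 15.50. Channel signals were computed from the mean signal and the ratio of each array, so the low wild-type value is not separate from the high ratio.

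Factor B, which Cfb encodes, supplies the protease of the alternative pathway convertase. Its log2 ratios were -0.43 and -0.27 in Atg7 cKO, while the double knockout gave 0.99 and 0.45 and the direct comparison 1.30 and 0.55, so the double knockout was above both partners in every experiment. It rose by 0.72 ± 0.38 against wild type (limma adjusted p = 0.0155) and by 0.93 ± 0.53 against Atg7 cKO (adjusted p = 0.0488). The first call was lost without experiment 3 (adjusted p = 0.0891) and the second in 9 of 13 alternatives, at values of 0.55 to 1.30. C2, its counterpart in the classical pathway, lay at 0.02 ± 0.20 in Atg7 cKO and rose by 0.48 ± 0.15 in the double knockout (adjusted p = 0.0324), a call lost without experiment 3 or 6 and with the mean over its probes.

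C4b encodes complement C4, which forms the classical and lectin convertase with C2, and its probe (chr17:34866361-34866420) gave values of opposite sign in the sets of experiments. The log2 ratios were -1.86 and 0.04 in Nrf2 KO, while Atg7 cKO gave -0.44 and 1.31, the double knockout -0.95 and 1.80 and the direct comparison -0.50 and 0.54. Every experiment of 1 to 3 was below 0 and every one of 4 to 6 above it. No comparison passed (limma adjusted p of at least 0.706 wherever Atg7 was deleted and of 1 in Nrf2 KO). Mouse has a near-identical neighbour, C4a, and the signal of this probe may hold both. The C4a probe lay at -0.02 ± 0.25 in Atg7 cKO against -0.05 ± 0.37 in the double knockout.

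Factor D, which Cfd encodes, activates factor B and comes mainly from fat tissue. Its log2 ratios were -1.44 and 1.99 in Atg7 cKO and 3.38 and -3.38 in the direct comparison, the widest spread of any member, with -0.73 and -0.33 in the double knockout. Only 2 of 4 Atg7 cKO channels were well above background, and the log2 signal of Cfd was 5.68 in experiment 2 against 8.82 in experiment 5, so the lower value has limited meaning as a size. Adipoq, a marker of fat cells, lay at -0.13 and 0.64 in Atg7 cKO and 0.82 and -3.57 in the direct comparison, with 2 of 4 Atg7 cKO channels well above background, and Fabp4, which macrophages also express, at 1.58 and 2.30 and at -1.73 and -1.51. The part of fat tissue in the Cfd values was not tested, and 3 of 5 fat cell markers were not tested for want of a kept probe.

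The terminal components, whose products build the lytic pore, were the group with the lowest values in Atg7 cKO: 4 of 6 fell and 0 rose, with a median of -1.12. In Nrf2 KO 0 of 6 passed, though the means of all 6 lay below 0 (median -0.33). In the double knockout 1 of 6 fell (median -0.46), and in the direct comparison 0 of 6 passed limma's threshold, with 3 at an unadjusted p under 0.05 (median 0.74). C8a (chr4:104488479-104488538), the alpha chain of C8, had log2 ratios of -0.22 and -0.38 in Nrf2 KO, while Atg7 cKO gave -2.38 and -1.31, the double knockout -1.34 and 0.02 and the direct comparison 1.05 and 1.44. C8b (chr4:104476999-104477058), the beta chain, had -0.29 and -0.47, then -1.86 and -1.22, then -1.39 and -0.16, and 0.58 and 1.30. C8g (chr2:25354440-25354569), the gamma chain, had -0.13 and -0.10, then -1.23 and -1.71, then -1.75 and -1.57, and -0.56 and 0.12. All 3 chains were low in both Atg7 cKO experiments, without overlap with Nrf2 KO. They parted in the double knockout, where C8g was low in both experiments, whereas C8a and C8b were low in experiment 3 and close to 0 in experiment 6.

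In numbers, C8a fell by 1.84 ± 0.76 in Atg7 cKO (3.59-fold; limma adjusted p = 0.0169), C8b by 1.54 ± 0.45 (2.91-fold; adjusted p = 0.0154) and C8g by 1.47 ± 0.33 (2.77-fold; adjusted p = 0.00135). The C8a call was lost without experiment 2 (adjusted p = 0.112, value -1.31) and the C8b call without experiment 2 or 5. In the double knockout C8g fell by 1.66 ± 0.13 (3.17-fold; adjusted p = 9.88e-04), whereas C8a lay at -0.66 ± 0.96 and C8b at -0.77 ± 0.87 (adjusted p = 0.237 and 0.11). The direct values were 1.24 ± 0.27 for C8a, 0.94 ± 0.51 for C8b and -0.22 ± 0.48 for C8g (adjusted p = 0.0704, 0.116 and 0.483). C8a and C8b products are pore-forming subunits, while C8g encodes a lipocalin that joins the alpha chain.

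Hc, the gene of C5, fell by 0.78 ± 0.35 in Atg7 cKO (limma adjusted p = 0.0201; lost without experiment 2, adjusted p = 0.13), lay at -0.27 ± 0.32 in the double knockout and at 0.43 ± 0.04 in the direct comparison (adjusted p = 0.28 and 0.104). C9, whose product polymerises into the pore wall, gave -0.81 and 0.04 in Atg7 cKO, while the double knockout gave -0.32 and 0.68 and the direct comparison 0.51 and 0.78. C6 gave -0.98 and 0.70, then -0.34 and 1.33, and 0.76 and 0.92. Neither C6 nor C9 passed in any comparison, and for both the lower-numbered experiment of Atg7 cKO and of the double knockout was the lower one.

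Several terminal components differed between the sets of experiments in wild type itself. The wild-type log2 signal of C6 ranged from 9.17 to 9.28 over experiments 1 to 3 and from 6.80 to 6.85 over the other set, a gap of 2.42 between the means (n = 3 each). C4b had a gap of 1.79, C8a 1.61, C8b 1.56 and C9 1.13, all higher in experiments 1 to 3. In all, 17 of 32 members had wild-type ranges that did not overlap between the sets, 11 of them higher and 6 lower in experiments 1 to 3, beside 40.8% of all genes. These ranges are a description, since the sets were recognised from transcripts of the same arrays and may also differ in animals or slides.

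The 5 members named were picked for a wild-type gap of at least 1, which by itself favours a narrower gap elsewhere, so the knockout channels of the same arrays are given as values only. The C6 gap was 2.36 in wild type and 0.68 in Atg7 cKO on the same arrays, and 2.43 and 0.76 in the double knockout. For C8a it was 1.68 and 0.60 in the Atg7 cKO experiments and 1.65 and 0.29 in those of the double knockout. C4b in the Nrf2 KO arrays had a gap of 1.73 in wild type and -0.16 in the knockout, and C8a there 1.50 and 1.67. A limma term for the set, added after seeing the data, gave -2.14 for C4b, -1.27 for C6 and -0.43 for Hc (experiments 1 to 3 minus 4 to 6 of the knockout over wild-type ratio), with adjusted p of 0.103, 0.175 and 0.131. By that term 0 of 32 members passed, with 7 at an unadjusted p under 0.05, beside 0.006% of all genes called.

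**Figure D2:**
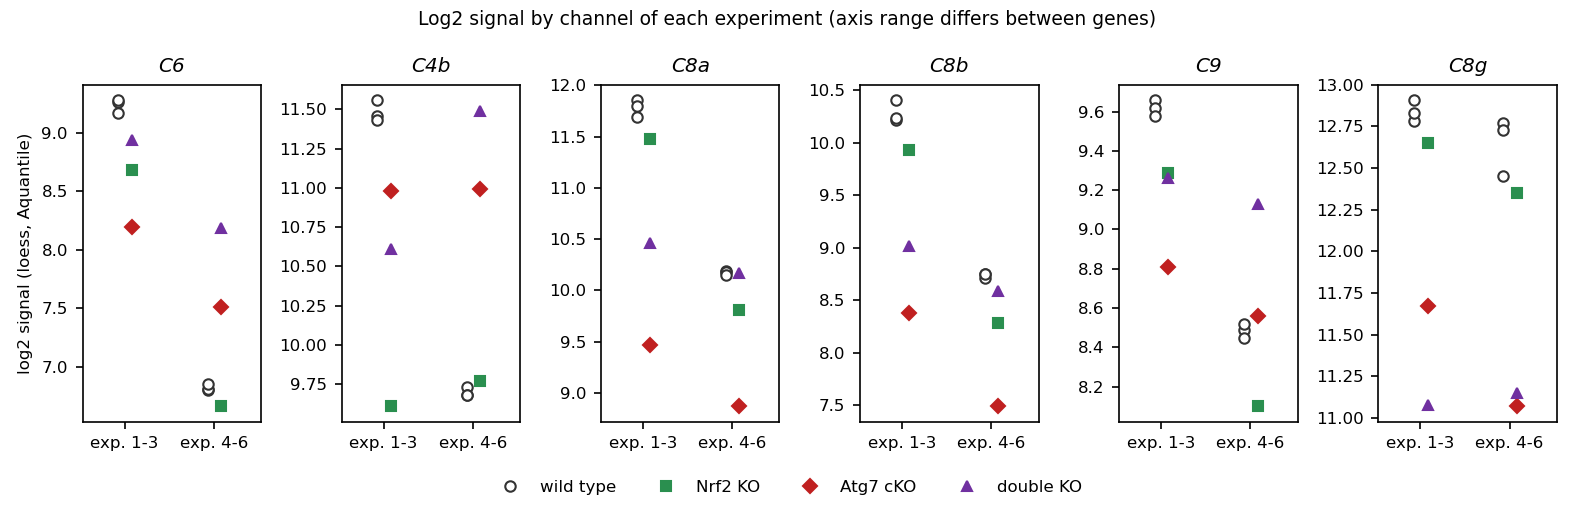
Log2 signal (y axis, own range for each gene) of 6 complement members in the wild-type channels (open circles, 3 per set) and in the knockout channels (filled symbols, 1 per genotype and set) of experiments 1 to 3 and 4 to 6. The wild-type channels of C6 lie at 9.17 to 9.28 and 6.80 to 6.85, while Atg7 cKO lies at 8.19 and 7.51; C8g shows no such gap in any genotype beyond 0.60.

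All 5 inhibitors in plasma passed the test in Atg7 cKO, 2 higher and 3 lower, and 3 rose and 0 fell in the double knockout. Serping1 encodes C1 inhibitor, which blocks C1r, C1s and the MASP proteases. Its log2 ratios (probe within chr2:84605968-84607474) were 0.09 and 0.09 in Nrf2 KO, while Atg7 cKO gave -0.54 and -0.43, the double knockout 1.14 and 0.90 and the direct comparison 1.61 and 1.34. Both experiments of each comparison agreed in sign, and Atg7 cKO and the double knockout lay on opposite sides of wild type. Serping1 fell by 0.49 ± 0.08 in Atg7 cKO (limma adjusted p = 0.00572) and rose by 1.02 ± 0.17 in the double knockout (2.02-fold; adjusted p = 9.47e-04). It was 1.47 ± 0.19 higher in the double knockout than in Atg7 cKO (2.78-fold; adjusted p = 0.00245). With experiments 7 and 8 alone that direct call was lost (limma adjusted p = 0.0724). Serping1 was the 1 member that passed below wild type in Atg7 cKO and above it in the double knockout.

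Vtn encodes vitronectin, which binds terminal complexes and keeps them out of membranes. Its log2 ratios (probe within chr11:78315393-78315665) were 0.20 and 0.08 in Nrf2 KO, while Atg7 cKO gave -1.05 and -0.96, the double knockout -0.01 and 0.05 and the direct comparison 0.99 and 0.76. Vtn was low in both Atg7 cKO experiments and near wild type in the double knockout. It fell by 1.01 ± 0.06 in Atg7 cKO (2.01-fold; limma adjusted p = 7.08e-04), lay at 0.02 ± 0.04 in the double knockout (adjusted p = 0.825) and was 0.88 ± 0.16 higher in the direct comparison (adjusted p = 0.00665; 0.082 without experiment 7 and 0.117 with experiments 7 and 8 alone). Cfi, the gene of factor I, which cuts C3b and C4b, fell by 0.64 ± 0.20 in Atg7 cKO (adjusted p = 0.00777; 0.0517 without experiment 2), lay at 0.02 ± 0.21 in the double knockout, and was 0.57 ± 0.07 higher in the direct comparison (adjusted p = 0.0257). That direct call of Cfi was lost in 6 of 13 alternatives, at values of 0.52 to 0.66.

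The interaction, which takes both single-knockout ratios from the double knockout ratio, asks whether the 2 deletions add on the log2 scale. It passed for 2 of 32 members, Serping1 at 1.41 (SE 0.123; limma adjusted p = 0.0287) and Vtn at 0.89 (SE 0.0936; adjusted p = 0.0407), beside 0.72% of all genes called. Both values kept their sign and size under every alternative run, 1.30 to 1.53 for Serping1 and 0.83 to 0.96 for Vtn. The calls were lost with processed signals, with the value table and with slide as a block. The Vtn call was also lost on leaving out any 1 of experiments 1 to 6, and the Serping1 call on leaving out any 1 of experiments 1 to 5. The hepatocyte-made median of the interaction was 0.62 and the macrophage-made one 0.07, beside 0.01 over all genes.

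C4b-binding protein, encoded by C4bp, and clusterin, encoded by Clu, rose in both livers without Atg7. C4bp had log2 ratios of 0.06 and -0.04 in Nrf2 KO, while Atg7 cKO gave 0.59 and 0.68, the double knockout 1.1 and 1.1 and the direct comparison 0.45 and 0.27. Clu, a chaperone that also binds terminal complexes, had 0.06 and -0.01, then 1.12 and 1.36, then 2.21 and 1.70, and 1.08 and 0.17. Both genes were high in all 4 experiments that set an Atg7-deleted liver against wild type, and the double knockout ranged above Atg7 cKO without overlap. C4bp rose by 0.63 ± 0.06 and 1.1 (limma adjusted p = 0.00135 and 6.71e-04) and Clu by 1.24 ± 0.17 and 1.95 ± 0.36 (2.36-fold and 3.87-fold; adjusted p = 0.00244 and 8.87e-04). Set directly against Atg7 cKO, C4bp lay at 0.36 ± 0.13 and Clu at 0.63 ± 0.65 (adjusted p = 0.0661 and 0.133). The C4bp difference passed in 3 alternatives, at 0.36 without a filter, 0.47 through wild type and 0.79 with the mean over probes. A second C4bp probe, well above background in 11 of 24 channels, lay at -0.01 in Atg7 cKO against 0.03 in the double knockout, and with the mean over both the ratios were 0.31 and 0.56, still called.

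**Figure D3:**
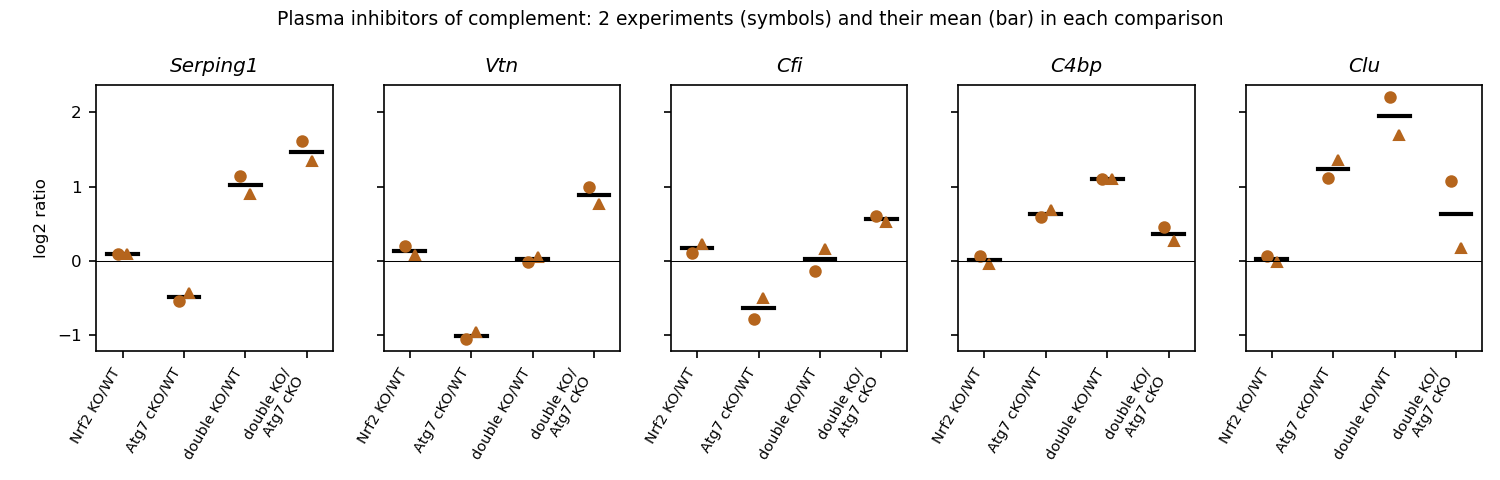
Log2 ratio (y axis) of the 5 plasma inhibitors of complement in the 4 comparisons (x axis); symbols are the 2 experiments of each comparison and bars their mean. Serping1, Vtn and Cfi lie below 0 in Atg7 cKO and above 0 in the direct comparison, while C4bp and Clu lie above 0 in both Atg7-deleted livers.

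The inhibitors on cell membranes differed from each other. Cd59a, which blocks C9 on cells, fell by 0.72 ± 0.13 in Atg7 cKO and by 0.72 ± 0.16 in the double knockout (limma adjusted p = 0.0027 and 0.00278) and lay at -0.22 and 0.22 in the direct comparison. A second, dimmer Cd59a probe lay at -0.19 and -0.40. Cd55, which breaks up convertases on cells, lay at 0.14 ± 0.02 in Atg7 cKO (adjusted p = 0.162), rose by 0.37 ± 0.18 in the double knockout (adjusted p = 0.0139; 0.09 without experiment 6) and was 0.54 ± 0.25 higher in the direct comparison (adjusted p = 0.047), a call lost in 12 of 13 alternatives. A second, dimmer Cd55 probe lay at 0.03 in the double knockout, so that rise rests on 1 of 2 kept probes; with their mean it was 0.20 and on processed signals 0.69.

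Side by side, the 32 members fell into few patterns of calls against wild type. In both Atg7-deleted livers 8 rose (C1qa, C1qb, C1qc, Cfp, Itgax, C4bp, Clu and Mbl2) and 5 fell (C8g, Cd59a, Masp1, Masp2 and Mbl1). The 5 that passed as lower in Atg7 cKO and did not pass in the double knockout were C8a, C8b, Hc, Vtn and Cfi, and the 4 that passed only in the double knockout were C2, Cfb, Cd55 and Itgam. Itgam passed the filter on dim probes only through knockout channels and so had to differ, which also holds for its call below. Serping1 changed sign, and 9 members passed in neither. These patterns depend on the fit. With the set of experiments as a block Hc (-0.27, limma adjusted p = 0.0134) and C1s (0.33, adjusted p = 0.0211) also passed in the double knockout and Itgam (0.21, adjusted p = 0.0443) in Atg7 cKO. With slide as a block C8a (-0.81), C8b (-0.85), Hc (-0.40) and C3 (0.84) passed in the double knockout (adjusted p = 0.00708, 0.0112, 0.0314 and 0.0497) and C9 (-0.56) in Atg7 cKO (adjusted p = 0.00974). Without experiment 6 C8b (-1.39) passed in the double knockout as well (adjusted p = 0.0245). Of the differences between the 2 genotypes themselves, those of Serping1, Vtn, Cfi, Cfb, Mbl1 and Cd55 passed in the direct comparison.

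**Figure D4:**
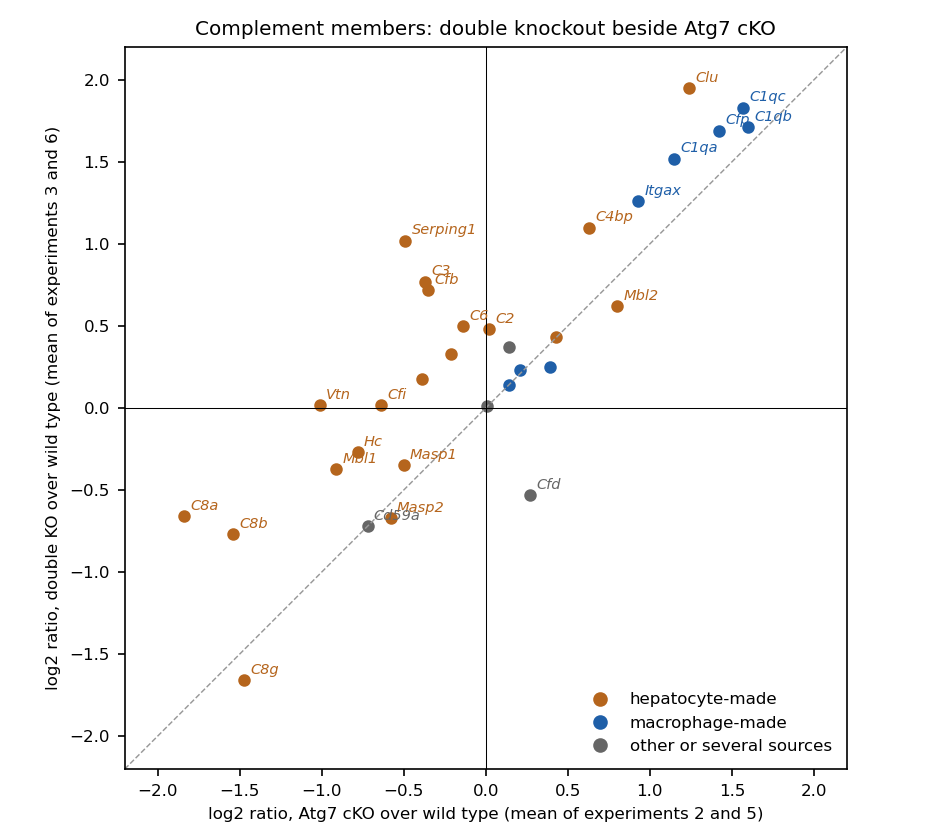
Mean log2 ratio of each of the 32 complement members in Atg7 cKO over wild type (x axis) and in the double knockout over wild type (y axis), 2 experiments each, coloured by main source; the dashed line marks equal values. Most hepatocyte-made members lie above the line, with Serping1 at -0.49 and 1.02 and Vtn at -1.01 and 0.02, and C1qa, C1qb, C1qc and Cfp lie in the upper right.

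Of 25 further complement genes, not members, 20 were tested. In Atg7 cKO 5 rose and 7 fell, in the double knockout 4 rose and 7 fell, and in the direct comparison 2 rose and 1 fell, with 0 calls in Nrf2 KO (2 at an unadjusted p under 0.05). These calls were 60%, 55% and 15% of the 20. Over all genes 39.4% were called in Atg7 cKO (23.2% higher, 16.2% lower) and 37.1% in the double knockout (21.2% higher, 15.9% lower). The direct comparison called 14.8% of all genes, so its share here was near that of all genes. Cpn2, a subunit of the carboxypeptidase that inactivates C3a and C5a, fell by 1.13 ± 0.06 and 0.81 ± 0.20 in the 2 Atg7-deleted livers (limma adjusted p = 0.00123 and 0.00249), and Susd4, a complement inhibitor, by 1.70 ± 0.96 and 1.43 ± 0.87 (adjusted p = 0.0289 and 0.0487). Itgb2, the chain that pairs with Itgam and Itgax, rose by 1.14 ± 0.34 and 1.32 ± 0.02 (adjusted p = 0.00213 and 0.00146).

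Hepatocyte markers were lower beside the hepatocyte-made members in Atg7 cKO. In the double knockout the medians of the markers and of these members had opposite signs, but this rested on experiment 6. The median of the members was -0.18 in experiment 3 and 0.31 in experiment 6, that of the markers -0.68 and -0.5. Of 9 markers tested, 1 rose and 6 fell in Atg7 cKO (median -0.97), and 2 rose and 5 fell in the double knockout (median -0.62). In the direct comparison 3 were higher and 0 lower (median 0.25). These calls were 77.8%, 77.8% and 33.3% of the 9, beside 39.4%, 37.1% and 14.8% of all genes. The summed signal of the markers ranged from 80890 to 83767 in Atg7 cKO against 146939 to 154732 in wild type on the same arrays, and from 136407 to 140661 in the double knockout against 115264 to 117412. In the double knockout the median and the sum thus differ in sign, and Hpx, the gene of the heme carrier hemopexin, rose by 3.10 there. All 9 were above background in at least 1 wild-type channel of each comparison. The part of this shift in the values of the hepatocyte-made complement genes was not tested.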

How the data were processed

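Total RNA of mouse liver was hybridised to 2-colour Agilent arrays. Scanner files of experiments 1 to 6 (12 arrays) hold intensity from Feature Extraction 9.5.1.1, per the file headers, with probes placed on mm9. The deposited series values are log10 ratios of Cy5 over Cy3 for all 16 arrays, each column with a median of 0, and the 12 with scanner files within 0.005 of the scanner log10 ratio; experiments 7 and 8 were read from these alone. Intensities were corrected by normexp (offset 50, which shrinks ratios of dim genes) and normalised by loess in limma 3.58.1 (R 4.3.3), without control and outlier spots. The sign was set to knockout over its partner, and each dye swap averaged to 1 replicate. Probes well above background in 4 or more of 24 channels were retained, the brightest standing for its gene.

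One limma fit (3 group means) gave the comparisons with wild type and the interaction, and another on log2 of the series values (4 group means) the direct comparison. Both pool the spread over groups and were run on simulated data with independent noise. The simulation held no effect of set, slide or shared wild-type RNA, so it does not show how the fits behave under these. P-values were adjusted by Benjamini-Hochberg over 16669 genes. Full values are given for members called with an absolute log2 ratio of at least 1 and the 2 largest of each source per comparison; others were added after their values were seen. The members and lists were chosen with earlier results of these data known. Filters, probes, offsets, signals, slides and left-out experiments were varied.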

Additional observations from a re-analysis of the deposited data

Results flagged for a closer look

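Among the 6 wild-type channels of C3, that of experiment 3 was far from the rest by Dixon's criterion, at a log2 signal of 13.99 against 14.70 to 15.11 in the others. Channel signals were computed from the mean signal and the ratio of each array. The flag is therefore not separate from the high C3 ratio of experiment 3 (1.50), and it does not show that the wild-type sample was unusual. Serping1 in experiment 4 met the same criterion, at 11.51 against 11.65 to 11.72. Chance alone marks about 1 in 20 such groups, and 32 members were examined.

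The effect of the double knockout differed from the sum of the single ones for Serping1 (interaction 1.41, limma adjusted p = 0.0287) and Vtn (0.89, adjusted p = 0.0407); both calls were lost under several alternatives.

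For C4b the knockout over wild-type ratio was below 0 in all of experiments 1 to 3 and above 0 in all of experiments 4 to 6. The difference between the sets was -2.14 on the log2 scale, and its test, added after seeing the data, gave a limma adjusted p of 0.103.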

How the results depend on the processing

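The 2 experiments per comparison limit every call, and C3ar1, Itgam and Itgax, well above background in 7, 6 and 21 of 24 channels, the fewest among the tested members, are limited by signal over background. The number of members called against wild type stayed within 1.5 times its value under all alternatives run. With 6 in the direct comparison it was 3 through wild type, 0 with experiments 7 and 8 alone and 1 to 5 on leaving out 1 experiment, where a lone experiment is assumed to vary like the other groups. With 2 for the interaction it was 0 with processed signals, with the value table and with slide as a block, and 0 to 1 on leaving out 1 experiment. The cause of these losses was not tested beyond the smaller number of experiments in some fits.

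Hepatocyte-made medians: in Atg7 cKO -0.50 with processed signals and with the value table and -0.48 with slide as a block (-0.52 to -0.44 on leaving out 1 experiment), in the direct comparison 0.60 with the mean over probes and 0.55 through wild type (0.52 to 0.55), in the double knockout 0.03 with slide as a block and 0.18 with the mean over probes (-0.18 to 0.31 on leaving out 1 experiment). Macrophage-made medians: in Atg7 cKO 1.54 with processed signals and with the value table and 1.42 over members above background in every channel (an alternative chosen after seeing the data), in the double knockout 1.85 with both, 1.69, then 1.07 with the mean over probes, 1.26 without a filter, 1.60 with the stricter filter and 1.68 with offset 16. Of single members only Cfd in Atg7 cKO changed sign with a call, from 1.99 without experiment 2 to -1.44 without experiment 5. Of the called members 14 of 19 in Atg7 cKO, 11 of 18 in the double knockout, 0 of 6 in the direct comparison and 0 of 2 in the interaction kept their call in every alternative. The compared groups share no replicate numbers; with the set of experiments as a block 20 members (Atg7 cKO) and 20 (double knockout) passed.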
